A study of Saccharomyces cerevisiae with 4 samples.

Results

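Phosphate acquisition and storage in Saccharomyces cerevisiae were followed through 10 genes. These were the secreted acid phosphatases PHO3, PHO5, PHO11 and PHO12, the plasma membrane phosphate transporters PHO84 and PHO89, and VTC1, VTC2, VTC3 and VTC4, which encode subunits of the vacuolar transporter chaperone complex. Members were chosen by name alone, as the array probes whose gene names include one of these 10, and 10 of the 6336 probes matched. Each probe was a 50-base oligonucleotide printed in 2 spots on every array.

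Yeast takes up inorganic phosphate through plasma membrane transporters and stores the surplus in the vacuole as polyphosphate, a chain of phosphate units that the VTC complex builds and moves across the vacuolar membrane. When external phosphate runs short, the transcription factor Pho4 with its partner Pho2 switches on PHO5, PHO11, PHO12, PHO84, PHO89 and the VTC genes, and when phosphate is plentiful the cyclin-dependent kinase Pho85 with its cyclin Pho80 keeps Pho4 out of the nucleus. PHO3, an acid phosphatase gene next to PHO5, stands outside this circuit and is repressed by thiamine. The mineral medium of these cultures held both potassium phosphate and thiamine.

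AT22 is an evolved strain selected from S288C at low pH with acetic acid. TAT12 was selected under the same acid regime from TTY23, which had itself been selected from S288C at elevated temperature, and S288C is the haploid laboratory strain from which all of them descend. All 4 strains were grown for the RNA measurements under the conditions that suit the ancestor, in flasks with defined medium, 2% glucose, pH 5.0 and 30 °C with agitation at 250 rpm according to the labels, without acetic acid, and were sampled in the middle of exponential growth, so the comparisons ask which differences an evolved strain carries when the selecting stress is absent. Each strain stands for 1 selected lineage. Differences between the strains therefore cannot be told apart from differences between single isolates.

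Total RNA was compared on 2-colour arrays in 4 pairs. S288C was paired with AT22 and with TAT12, and TAT12 was also paired with TTY23 and with AT22. In each pair the strains were labelled with Alexa555 and Alexa647 and hybridised on 2 arrays with the dyes exchanged, and the 2 arrays of such a dye swap counted as 1 replicate. Every comparison thus had n = 1 and no error between cultures, and the spread given below is that between the arrays of a swap. The pairs share strains, and whether a strain's RNA was extracted once or several times was not stated. Once the ratios were turned to the same direction, the correlation across genes between the arrays of a swap was between −0.17 and 0.13, while r between the duplicate spots of an array was 0.79 to 0.94. The second array of AT22 and S288C had no settled direction, because its log2 ratios ran against those of the second TAT12 and S288C array (r = −0.59 across genes). By itself this r does not tell which of these 2 arrays runs the other way. Only the AT22 array is shown both ways. TAT12 over S288C is given as labelled only, so its calls and the signs shared by its 2 arrays rest on that direction. The log2 ratios and calls of single members in AT22 over S288C are given as labelled and also with the sign of its second array turned, while the limma fit used the labelled direction only.

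Net signal below means the scanner intensity minus the local background, averaged over both spots of a probe, and a reading was called above background when it passed the 95th percentile of the 320 empty spots of its array and dye. Over 8 arrays and 2 dyes each probe had 16 readings. The probe of VTC1, a small membrane subunit of the complex, and that of PHO5, the main secreted acid phosphatase of phosphate-starved cells, were above background in 16 of 16 readings. VTC4, the catalytic subunit that polymerises phosphate, passed in 15 of 16, and VTC2 and VTC3, which take each other's place in the complex, passed in 14 of 16 each. PHO84, the high-affinity phosphate and proton symporter, and PHO12 passed in 10 of 16 readings each, and PHO11 in 8. PHO3 passed in 7 readings, of which 6 were in Alexa555 and 1 in Alexa647. PHO89, a sodium and phosphate cotransporter known for its activity at alkaline pH, passed in 2 of 16. For comparison, the median gene of the array passed in 13 of 16.

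**Figure D1:**
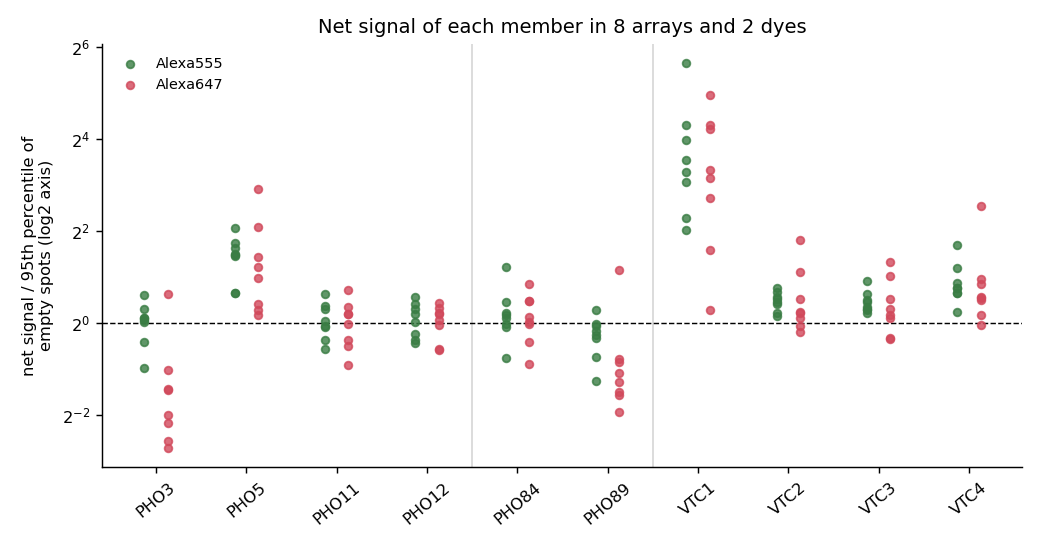
Net signal of each of the 10 probes divided by the 95th percentile of the empty spots (log2 axis), with 1 point for each of 8 arrays in Alexa555 (left) and Alexa647 (right). Points under the dashed line were at background, which holds for 14 of 16 PHO89 readings and for no reading of PHO5 or VTC1.

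The probes of the acid phosphatases do not separate all genes. The file names both PHO3 and PHO5 for the PHO5 probe (systematic name YBR093C), and both PHO11 and PHO12 for the probes listed as YAR071W (PHO11) and YHR215W (PHO12), so signal from these near-identical copies cannot be assigned to one of them. The PHO3 probe (YBR092C) and the probes of the other 6 members name 1 gene each. The PHO11 and PHO12 probes had the same sign on 8 of 8 arrays, with an SD of 0.26 for their difference in log2 ratio. The PHO3 and PHO5 probes had the same sign on 5 of 8 arrays, and there the SD of the difference was 0.83 with a largest gap of 1.54.

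A log2 ratio is given with the evolved strain, or TAT12 in both comparisons between evolved strains, over the other, so a positive value means more signal in the first-named strain. The z-score sets the ratio of a gene against the 100 genes nearest in mean intensity, and an absolute z-score above 2 was the study's threshold for a changed gene. It carries no p-value. In these bulk cultures, fewer cells with a transcript and less of it per cell cannot be told apart. Of the members, 1 was called lower and 0 higher in AT22 over S288C, where 4.09% of all genes were lower and 0.537% higher. With the second array turned 1 member was called higher and 0 lower, against 1.2% of all genes higher and 2.83% lower. TAT12 over S288C had 1 member called higher and 0 lower, against 3.11% and 1.94% of all genes. TAT12 over TTY23 had 0 members called, where 3.08% of genes were higher and 2.43% lower, and in TAT12 over AT22 0 members were called, where 3.38% were higher and 0.9% lower. A single call is the smallest count above 0 that 10 members can give, so 10 members are too few to set these counts apart from the shares of all genes.

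At a lower limit the members' share lay above that of all genes in 2 comparisons and below it in the other 2. An absolute z-score above 1 was reached by 4 members in AT22 over S288C (29.2% of all genes, or again 4 members and 32.2% of genes with the second array turned), 1 in TAT12 over S288C (30.8%), 6 in TAT12 over TTY23 (29%) and 1 in TAT12 over AT22 (30.1%). The 6 members past 1 in TAT12 over TTY23 were PHO11, PHO12, VTC2 and VTC4 on the positive side and VTC1 and VTC3 on the negative side, and the PHO11 and PHO12 probes there read the same pair of genes. No member differed by 2-fold in any comparison, a size that 0.3%, 0.71%, 0.205% and 0.0789% of genes reached in the same order, and 0.442% in AT22 over S288C with the array turned. The median log2 ratio of the members was −0.0043 in AT22 over S288C, 0.11 in TAT12 over S288C, 0.082 in TAT12 over TTY23 and −0.00073 in TAT12 over AT22, against medians of 0.025, 0.020, 0.0080 and −0.010 over all genes. With the second array turned the AT22 over S288C median was 0.11 for the members and 0.0026 for all genes.

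**Figure D2:**
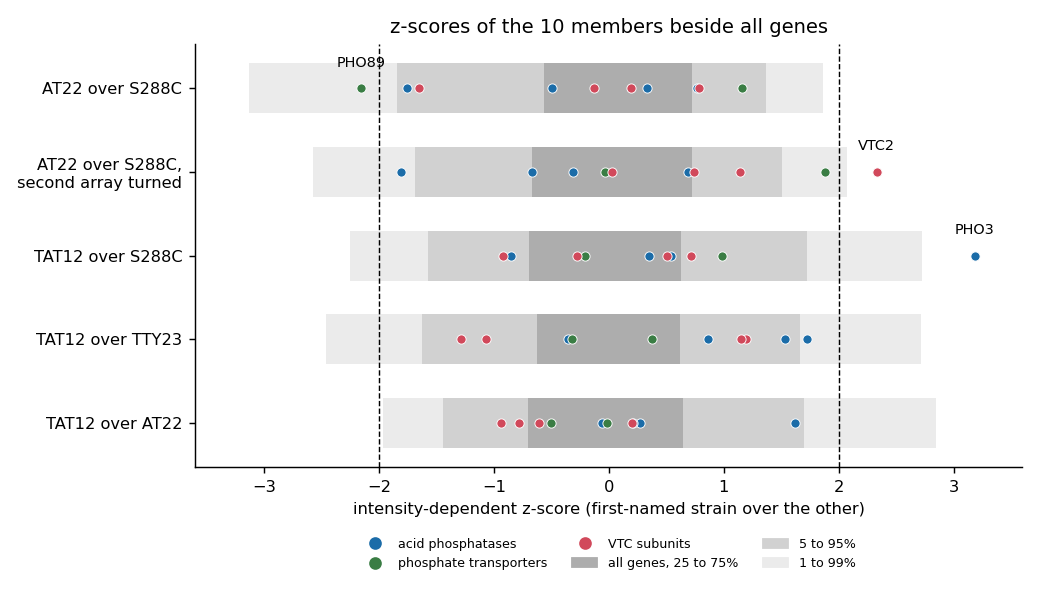
Intensity-dependent z-scores of the 10 members in the 4 comparisons (points, coloured by role), with AT22 over S288C also shown with its second array turned, over bands that hold the central 50, 90 and 98% of all genes. Dashed lines mark the threshold of 2, which PHO89 passed at −2.16 and PHO3 at 3.18 as labelled, and VTC2 at 2.33 with the array turned.

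Among the acid phosphatases, PHO3 was the member called in TAT12 over S288C, with a mean log2 ratio of 0.56 and a z-score of 3.18. The 2 arrays gave opposite signs. On the first array the PHO3 net signal was 35.2 in TAT12, labelled with Alexa647, and 51.3 in S288C, labelled with Alexa555, with a log2 ratio of −0.33. On the second, with the dyes exchanged, it was 161 in TAT12 and 17.8 in S288C, with a log2 ratio of 1.45. This direction is the labelled one, and turning the second array would put both ratios below 0. TAT12 was above background only on the second array and S288C only on the first, which in both cases is the array where the strain carried Alexa555.

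The PHO3 probe gave the same pattern wherever TAT12 was measured. Against TTY23 its net signal was 28.9 in TAT12 and 75.8 in TTY23 on the first array (log2 ratio −0.75), and 109 in TAT12 and 14.8 in TTY23 on the second (0.96). The mean was 0.11 with a z-score of 0.86. Against AT22 it was 18.3 in TAT12 and 54.2 in AT22 on the first array (−0.77), and 65.6 in TAT12 and 14.2 in AT22 on the second (0.79), where neither strain was above background. In each of these 3 comparisons TAT12 lay below the other strain on the first array and above it on the second.

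The PHO3 probe kept its sign in AT22 over S288C. Net signal was 18.3 in AT22 and 70.1 in S288C on the first array, and 39.5 in AT22 and 60.0 in S288C on the second, with log2 ratios of −0.53 and −0.37 and a z-score of −1.76 for their mean of −0.45. AT22 was at background on both arrays and S288C above it on both. Since the bound that a strain at background allows was under 1 here, no fold is given. With the second array turned the mean was −0.08 and the z-score −0.66.

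Over the 8 arrays, in which by the labels every pair of strains appears in both dye orientations, the PHO3 probe had a mean log2 ratio of Alexa647 over Alexa555 of −0.65. Only 0.347% of genes had a lower mean, and the SD of this mean over all genes was 0.153. The probe was brighter in Alexa555 on 7 of 8 arrays, the exception being the second array of AT22 and S288C, whose direction was not settled. PHO89 had a mean of −0.21 and was brighter in Alexa555 on the same count of arrays, 7 of 8, again with that array as the exception. VTC1 had a mean of −0.25 and was brighter in Alexa555 on 5 of 8. The other 7 members lay between −0.0095 and 0.13. The part of the dye in the PHO3 and PHO89 calls was not tested.

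**Figure D3:**
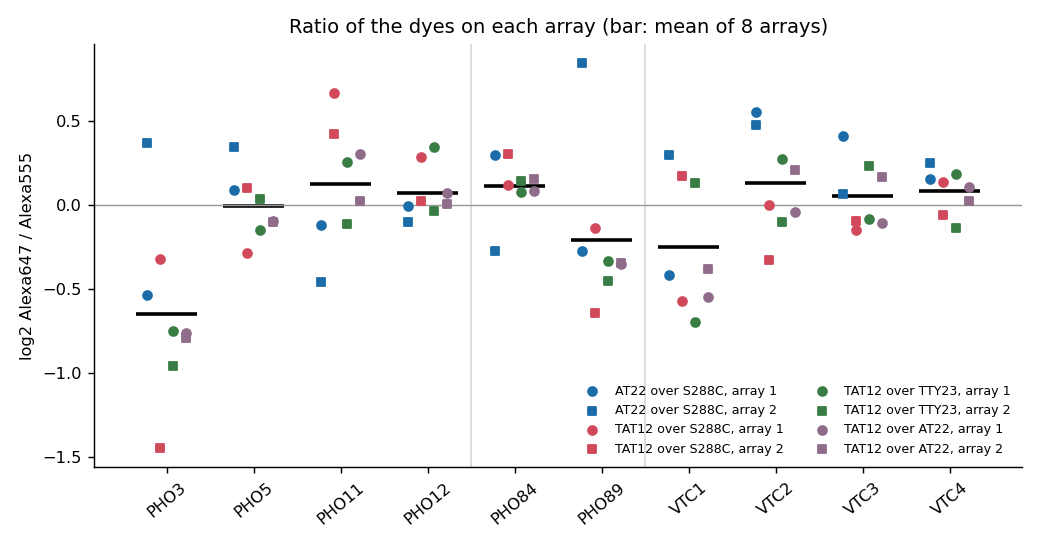
Log2 ratio of Alexa647 over Alexa555 for each member on each of the 8 arrays, coloured by comparison, with circles for the first array and squares for the second. Bars give the mean of 8 arrays, which was −0.65 for PHO3, −0.25 for VTC1 and −0.21 for PHO89.

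The PHO5 probe, which also names PHO3, had a ratio smaller in size than that of the PHO3 probe on each of the 8 arrays. Against S288C its net signal was 136 in AT22 and 193 in S288C on the first array and 328 in AT22 and 294 in S288C on the second, with log2 ratios after normalization of 0.09 and −0.34. Both strains were far above the empty spots on both arrays, and the arrays disagreed in sign. The mean was −0.13 with a z-score of −0.50, or 0.22 with a z-score of 0.69 with the second array turned.

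As labelled, PHO5 had the same sign on both arrays in both other comparisons with a progenitor. The net signal against S288C was 87.7 in TAT12 and 147 in S288C on the first array and 165 in TAT12 and 142 in S288C on the second, with log2 ratios of −0.29 and −0.10 and a z-score of −0.85. Against TTY23 the log2 ratios were −0.15 and −0.04, with a z-score of −0.36. In TAT12 over AT22 they were −0.10 and 0.10. Their largest mean, 0.19 below 0 in TAT12 over S288C, is a 1.14-fold lower signal in TAT12, and no PHO5 value passed the threshold.

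The PHO11 and PHO12 probes, which read the same pair of acid phosphatase genes, lay near the background limit. For TAT12 over S288C the PHO11 probe had 119 in TAT12 and 72.8 in S288C on the first array and 130 in TAT12 and 135 in S288C on the second, with log2 ratios of 0.66 and −0.42. The PHO12 probe had 74.9 in TAT12 and 54.5 in S288C on the first and 140 in TAT12 and 102 in S288C on the second, with log2 ratios of 0.28 and −0.02. After normalization both probes had a positive ratio on the first array only. The PHO12 net signal was higher in TAT12 on both arrays, and its normalized ratio on the second was close to 0. The z-scores were 0.35 for PHO11 and 0.54 for PHO12.

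Both probes were positive on both arrays of TAT12 over TTY23. The PHO11 probe had log2 ratios of 0.25 and 0.12 with a z-score of 1.53, and TTY23 was at background on both arrays. With TTY23 set at its background limit the probe was 1.10-fold higher in TAT12. TAT12 was itself above background on 1 of 2 arrays only, so the fold is not a lower bound. The PHO12 probe was above background in both strains on both arrays, with net signals of 105 in TAT12 and 73.8 in TTY23 on the first and 110 in TAT12 and 68.4 in TTY23 on the second. Its log2 ratios were 0.34 and 0.04, a 1.14-fold higher mean in TAT12 with a z-score of 1.72, and this stayed short of the threshold.

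For AT22 over S288C the PHO11 log2 ratios were −0.12 and 0.46 and those of PHO12 −0.01 and 0.11. AT22 was at background on both arrays at PHO12, and with the second array turned the mean was −0.29 for PHO11 with a z-score of −1.81 and −0.06 for PHO12 with a z-score of −0.31. The PHO11 sign thus depended on the direction of that array. In TAT12 over AT22 the PHO11 probe was at background in both strains on both arrays, so it has no fold, and PHO12 had log2 ratios of 0.07 and −0.0033.

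**Figure D4:**
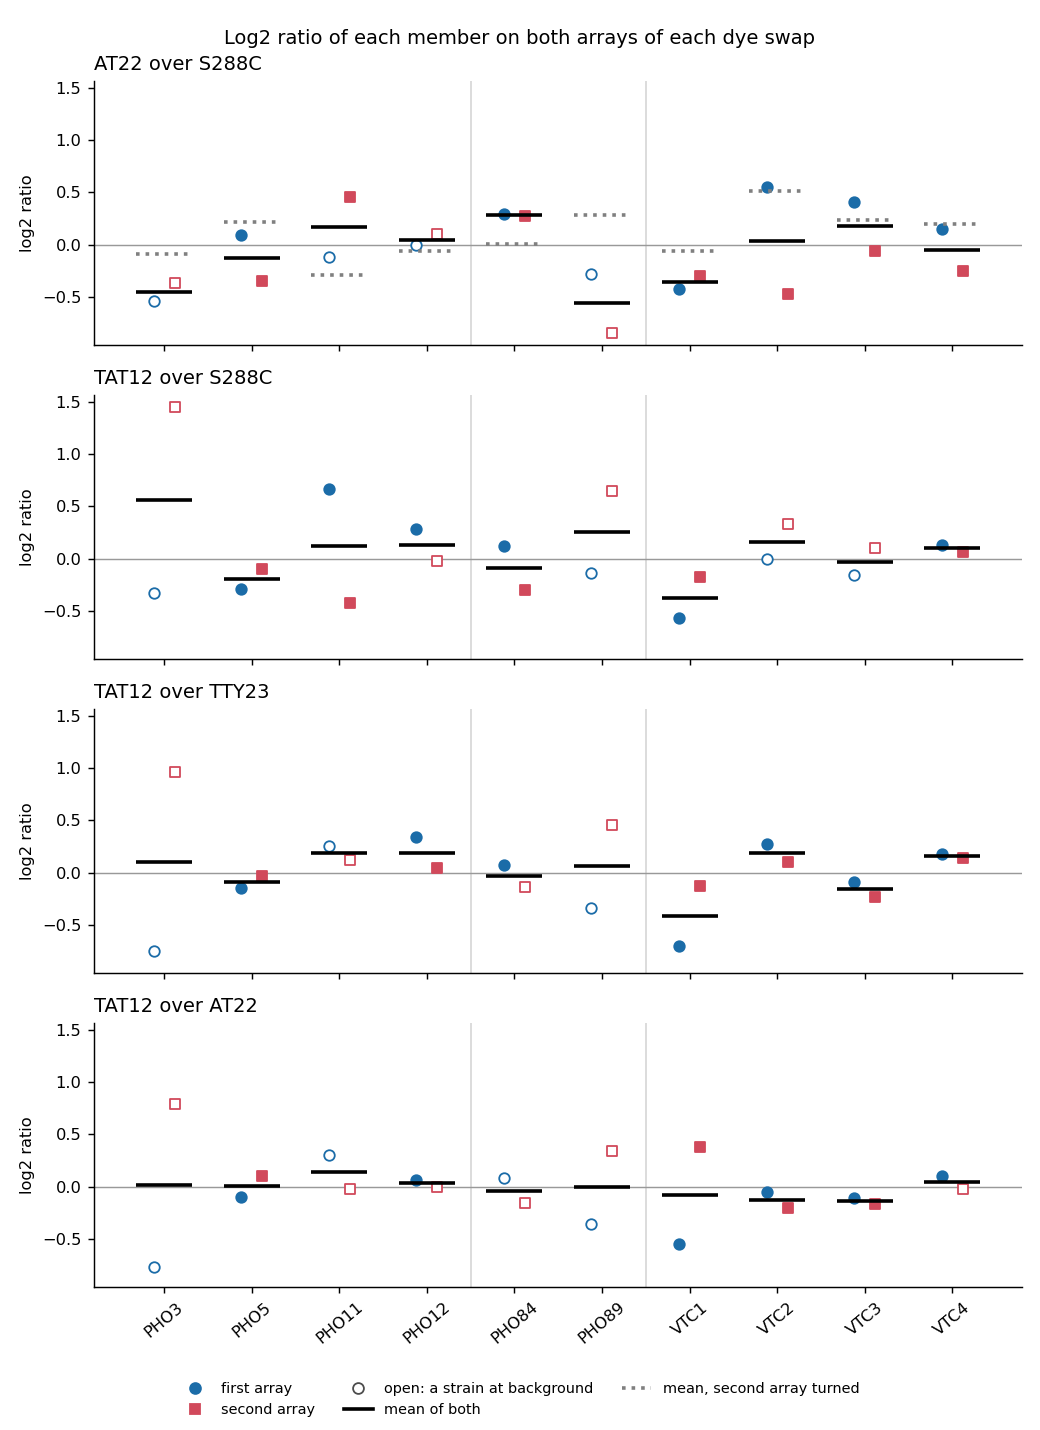
Log2 ratio of each member on the first array (circles) and second array (squares) of each dye swap, first-named strain over the other, with the mean as a black bar and, for AT22 over S288C, the mean with the second array turned as a dotted bar. Open symbols mark arrays where at least 1 of the 2 strains was at background, which includes every PHO3 and PHO89 value, and the widest gap between arrays is that of PHO3 in TAT12 over S288C, at −0.33 and 1.45.

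Of the phosphate transporters, PHO89 was the member called in AT22 over S288C, with a mean log2 ratio of −0.56 and a z-score of −2.16. Net signal was 29.0 in AT22 and 68.1 in S288C on the first array and 32.8 in AT22 and 86.1 in S288C on the second. Only the S288C reading on the second array was above background. The log2 ratios were −0.28 and −0.84, so the labelled signs were the same and the second array carried most of the mean. With AT22 set at its background limit, PHO89 was 1.09-fold lower in AT22. The S288C mean behind this fold includes its first-array reading, which was at background, so the fold is not a lower bound. The limma fit over all 6336 genes gave an adjusted p of 0.999.

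The direction of the PHO89 call depends on that second array. With its sign turned the mean was 0.28 with a z-score of 1.88, on the other side of 0 and under the threshold. PHO89 against S288C had 40.1 in TAT12 and 45.4 in S288C on the first array and 128 in TAT12 and 43.4 in S288C on the second, with log2 ratios of −0.14 and 0.65, TAT12 above background on the second array only, and a z-score of 0.98. For TTY23 and AT22 as partners of TAT12 all readings were at background, and no fold is given.

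PHO84, the main high-affinity transporter, was above background in both strains on both arrays of AT22 over S288C. Its net signal was 70.0 in AT22 and 79.8 in S288C on the first array, and 108 in AT22 and 70.2 in S288C on the second, with log2 ratios after normalization of 0.30 and 0.28. These arrays lay close together, and the mean of 0.29 is a 1.22-fold higher signal in AT22 with a z-score of 1.16. With the second array turned the mean was 0.01.

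PHO84 ratios of TAT12 differed in sign between the arrays of every swap. Over S288C the net signal was 99.2 in TAT12 and 110 in S288C on the first array and 120 in TAT12 and 108 in S288C on the second, with log2 ratios of 0.12 and −0.30. Over TTY23 the log2 ratios were 0.07 and −0.14, with both strains above background on the first array only. The means were −0.09 and −0.03, with z-scores of −0.20 and −0.32, and over AT22 all 4 readings were at background.

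VTC1 had the lowest mean ratio of the VTC subunits in 3 of the 4 comparisons. In AT22 over S288C its net signal was 151 in AT22 and 335 in S288C on the first array and 763 in AT22 and 727 in S288C on the second, with log2 ratios of −0.42 and −0.30. Against S288C it was 86.7 in TAT12 and 193 in S288C on the first and 886 in TAT12 and 1066 in S288C on the second, with log2 ratios of −0.57 and −0.17. Against TTY23 it was 690 in TAT12 and 1155 in TTY23 on the first and 1754 in TAT12 and 1836 in TTY23 on the second, with log2 ratios of −0.70 and −0.13. By the normalized ratios as labelled, both acid-selected strains were below the strain they were compared with on both arrays of these 3 swaps. On the second array of AT22 and S288C, however, the net signal was higher in AT22, and with that array turned its log2 ratio was 0.30.

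The mean log2 ratios of VTC1 were −0.36 in AT22 over S288C (1.28-fold lower in AT22), −0.37 in TAT12 over S288C (1.29-fold lower in TAT12) and −0.41 in TAT12 over TTY23 (1.33-fold lower in TAT12). Their z-scores were −1.65, −0.92 and −1.28, all short of the threshold. Turning the second array of that swap gave an AT22 mean of −0.06 with a z-score of 0.02. Between the evolved strains, TAT12 had 1636 and AT22 2504 on the first array, and TAT12 had 1013 and AT22 612 on the second, with log2 ratios of −0.55 and 0.38, a mean of −0.08 and a z-score of −0.60.

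A limma fit over the 4 dye-swap means with 1 residual degree of freedom gave VTC1 the lowest p of the 10 members in 3 of the 4 comparisons, 0.0885 in AT22 over S288C, 0.0546 in TAT12 over S288C and 0.0874 in TAT12 over TTY23. The adjusted p was 0.999 in AT22 over S288C and 1.00 in both others after Benjamini-Hochberg adjustment over 6336 genes. PHO3 had the lowest p in TAT12 over AT22, with an adjusted p of 1.00 in the same limma fit. The fit called 0 genes at an adjusted p under 0.05 in any comparison, and at an unadjusted p under 0.05 it held 91, 253, 150 and 94 genes, listed in that order of comparisons, and 0 members. It refers to fitted VTC1 log2 ratios of −0.34 in AT22 over S288C, −0.39 in TAT12 over S288C and −0.41 in TAT12 over TTY23. The only residual of the fit was the gap between TAT12 over S288C and the path by way of AT22, so the VTC1 p-values share 1 residual. That gap was −0.072 at VTC1, and 14.3% of genes had a smaller one. TTY23 was in 1 swap, so its fitted ratio was the measured one and the spread between those arrays did not enter.

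VTC4 did not pass the threshold in any comparison. Its net signal in TAT12 over TTY23 was 152 in TAT12 and 124 in TTY23 on the first array and 140 in TAT12 and 85.7 in TTY23 on the second, with log2 ratios of 0.18 and 0.14, a 1.12-fold higher mean in TAT12 and a z-score of 1.15. Over S288C the TAT12 log2 ratios were 0.13 and 0.06. For AT22 over S288C they were 0.15 and −0.25, with a mean of −0.05, or 0.20 with the second array turned, and in TAT12 over AT22 they were 0.10 and −0.02. As labelled, VTC4 thus had the same sign on both arrays in both comparisons of TAT12 with its progenitors.

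VTC2 passed the threshold in AT22 over S288C only with the second array turned. Net signal was 108 in AT22 and 99.5 in S288C on the first array and 108 in AT22 and 137 in S288C on the second, all above background, with log2 ratios of 0.55 and −0.47. As labelled the mean was 0.04 with a z-score of 0.19. Turned, it was 0.51, a 1.42-fold higher signal in AT22, with a z-score of 2.33, which made VTC2 the 1 member called there.

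In TAT12, VTC2 stayed under the threshold. Over S288C the log2 ratios were −0.0048 and 0.33 and each strain was above background on 1 of 2 arrays. Over TTY23 the net signal was 112 in TAT12 and 84.5 in TTY23 on the first array and 118 in TAT12 and 70.0 in TTY23 on the second, with log2 ratios of 0.27 and 0.10 and a z-score of 1.19. Over AT22 the log2 ratios were −0.05 and −0.21, with a z-score of −0.78.

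VTC3, the subunit that replaces VTC2 in one form of the complex, had log2 ratios of 0.41 and −0.06 in AT22 over S288C, with a mean of 0.17, or 0.24 with the second array turned. In TAT12 it was below 0 in all 3 means. The mean over S288C was above 0, however, with median centring (0.09), the brighter spot of the probe (0.04) or no background correction (0.0039). Over S288C the log2 ratios were −0.15 and 0.10, over TTY23 −0.09 and −0.23, and over AT22 −0.11 and −0.16. The z-scores were −0.28, −1.07 and −0.94. VTC2 and VTC3 had opposite signs on both arrays of TAT12 over TTY23 and the same sign on both arrays of TAT12 over AT22.

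The mean log2 ratio was above 0 for 5 of 10 members in AT22 over S288C (54.2% of all genes). With the second array turned it was above 0 for 6 (50.6%). The counts were 6 in TAT12 over S288C (53.1%), 6 in TAT12 over TTY23 (52.2%) and 5 in TAT12 over AT22 (46.2%). With n = 1 and little agreement between the arrays of a swap, these signs cannot tell whether the members move together. The same sign on both arrays of a swap was found for 4 of 10 members in AT22 over S288C (52.9% of all genes), or 6 with the second array turned (47.1%), 3 in TAT12 over S288C (50.2%), 7 in TAT12 over TTY23 (50.0%) and 2 in TAT12 over AT22 (42.1%). The number of members with all 4 readings of a swap above background was 6, 5, 6 and 4 in the same order. The shares of all genes were 60.7%, 41.2%, 63.2% and 42.0%. Where 7 members kept their sign, in TAT12 over TTY23, PHO11, PHO12, VTC2 and VTC4 were above 0 and PHO5, VTC1 and VTC3 below.

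The ratio of TAT12 over S288C could also be had by way of AT22, as the sum of AT22 over S288C and TAT12 over AT22, and the gap between both paths holds any difference between hybridisations, labellings, RNA extractions or cultures, which cannot be told apart here. Across all genes the SD of the gap was 0.49 on the log2 scale, or 0.32 if the doubtful AT22 array was turned. PHO3 had a gap of −0.999, larger in size than that of 94.5% of genes, with −0.44 along the path and 0.56 measured directly. PHO89 had a gap of −0.82 (90.8% of genes smaller), with −0.56 along the path and 0.25 directly. The paths of both called members had opposite signs, but at least 1 strain was at background on every array of both genes, and in TAT12 over AT22 all PHO89 readings were, so these gaps are between readings near the level of the empty spots.

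With the array turned the PHO89 gap was 0.024, with 0.28 along the path and 0.25 directly, and that of PHO3 was still −0.63. For VTC1 both paths were below 0, with −0.44 along the path and −0.37 directly, and with the array turned −0.14 along the path. The other 7 members had gaps between −0.25 and 0.34 as labelled. The PHO5 gap was 0.067 as labelled and 0.41 with the array turned, so turning the array closed the loop for some members and opened it for others.

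**Figure D5:**
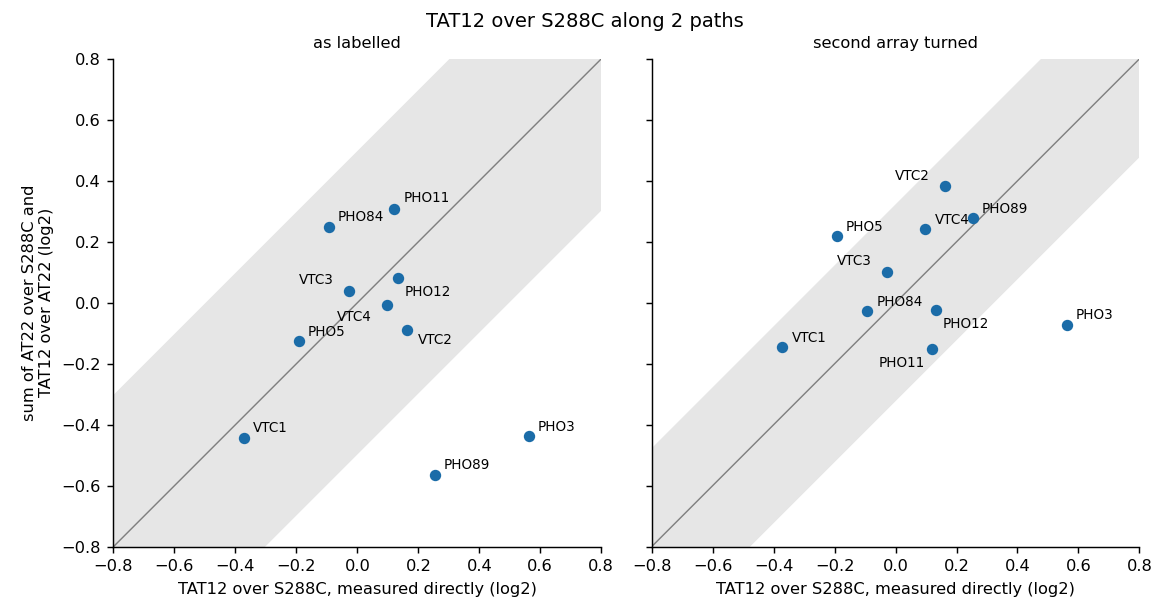
Log2 ratio of TAT12 over S288C for each member, measured directly (horizontal) and as the sum of AT22 over S288C and TAT12 over AT22 (vertical), with AT22 over S288C as labelled (left) and with its second array turned (right). The line marks equal values and the band 1 SD of the gap over all genes, 0.49 on the left and 0.32 on the right, and PHO3 lies outside the band in both panels.

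The other genes of phosphate metabolism were counted in 4 lists with 29 genes in all, of which 29 were measured. No gene of the lists was called in AT22 over S288C, as labelled or turned, or in TAT12 over S288C. In TAT12 over TTY23 1 was lower and 0 higher, and in TAT12 over AT22 1 was higher and 0 lower, beside the shares of all genes given above. The regulators (PHO2, PHO4, PHO80, PHO81, PHO85, KCS1, VIP1, SPL2 and PHO92) had 0 of 9 called in any comparison, with medians between −0.070 and 0.090. The other transporters and their partners (PHO87, PHO90, PHO91, GIT1, PHO86, PHO88, SYG1 and GTR1) had 0 of 8 called, with medians between −0.037 and 0.15.

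The 5 other phosphatases and phosphodiesterases (PHO8, PHO13, PHM8, GDE1 and DIA3) held the call in TAT12 over TTY23. PHM8, a phosphatase of lysophosphatidic acid and nucleotides that is induced when phosphate is short, had a mean log2 ratio of −0.18 and a z-score of −2.08, with −0.50 and 0.14 on the 2 arrays and 1 of 4 readings above background. The 7 polyphosphate genes and VTC partners (VTC5, PPX1, PPN1, PPN2, DDP1, PHM6 and PHM7) held the call in TAT12 over AT22, which was VTC5, an accessory subunit that raises polyphosphate synthesis. VTC5 had a z-score of 2.62 with 0 of 4 readings above background, so it has no fold. Both calls rested on readings at or near the level of the empty spots.

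Only PHO5 and VTC1 of the members passed the background limit in every reading, as 2168 of the 6336 genes were, and for these the genes with the most similar log2 ratios over the 8 arrays were sought among 2158 others. For the PHO5 probe they were PEP3, a vacuolar membrane protein needed for membrane fusion (r = 0.88), and PXP1, a peroxisomal protein (r = 0.88). For VTC1 they were SMD2, a core protein of the spliceosome (r = 0.91), and the uncharacterised YNL033W (r = 0.90). The 8 arrays share strains, dyes and RNA, and the highest of many correlations over 8 points is given as a description.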

How the data were processed

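Total RNA of 4 strains was compared on 8 two-colour arrays of 50-mer probes, 2 arrays per pair of strains with the dyes exchanged. For each of 13056 spots (320 empty, 64 controls) the authors deposited intensity values as scanned, with the local background, and a score per gene and comparison, the z-score of the genArise package (version not given in the sources used here). The direction of the deposited scores was that of the labels (r between 0.78 and 0.93 with the z-scores computed here). PHO3 has no deposited score in 3 comparisons and PHO89 none in 2. The deposited series value table was not used.

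Background correction by normexp (offset 50) was done with limma 3.58.1 (R 4.3.3), which also normalized within arrays by loess, with control and empty spots at weight 0. Spots of a probe were averaged, the second orientation was turned and both arrays of a swap gave 1 replicate. The z-score used 100 neighbours in mean intensity, 50 above and 50 below. A strain at background was set to the lowest signal above background on the array. This bounds the ratio only where the other strain was above background on both arrays. limma (lmFit, eBayes) was fitted over the 4 swap means with 1 residual degree of freedom and Benjamini-Hochberg adjustment over 6336 genes. Steps were tested on simulated data. The z-scores and figures were made in Python 3.11.15 (numpy 2.4.6, matplotlib 3.10.9, pandas 2.3.3).

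Members, lists and tests were chosen with earlier results of these data known. The rule named all 10 members, list genes past an absolute z-score of 2, and the 2 genes most like each member above background on every array. Symbols of the members matched RefSeq annotation (R64) by systematic name, and PHO88 is listed there as SND3. No genome build is named in the files, so no coordinates are given. The median signal over local background was 2.51 to 3.52 in Alexa555 and 1.22 to 3.09 in Alexa647, and the number of arrays limits the precision. Alternatives covered background, normalization, dim spots, single arrays, least squares, the deposited scores, neighbours, threshold, spots, limma and the direction of 1 array.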

Additional observations from a re-analysis of the deposited data

How the results depend on the processing

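In AT22 over S288C, 1 member was called with local background subtracted, no background correction, median centring, the brighter spot, 200 neighbours, the second array alone and the deposited z-scores, and it was PHO89 in each. It was PHO3 on the first array alone and VTC2 with the second array turned. The count was 0 among genes above the empty spots, by least squares over the 4 swaps, at a fold of 2 and by limma, and 4 at an absolute z-score above 1. In TAT12 over S288C, the count was 0 among genes above the empty spots, by least squares, by the deposited z-scores (which do not list PHO3), at a fold of 2 and by limma, and PHO11 was called in place of PHO3 on the first array alone. In TAT12 over TTY23, 0 became 2 on the first array alone (PHO3 and VTC1), 2 on the second (PHO3 and PHO89) and 6 at an absolute z-score above 1. In TAT12 over AT22, 0 became 2 on the first array alone (PHO3 and PHO89), 1 on the second (PHO3), 1 by least squares (PHO3) and 1 at an absolute z-score above 1. The share of all genes called is given above only for the main setting, the turned array, the lower limit, the 2-fold limit and limma. Under the other settings the member counts cannot be set beside all genes. The cause of these changes in count was not tested, except that the filter on the empty spots left PHO3 and PHO89 out. Of the called values, the sign changed for PHO89 in AT22 over S288C with the second array turned (0.28) and for PHO3 in TAT12 over S288C on the first array alone (−0.33). Values under the threshold also changed sign. With the second array turned, 5 of 10 AT22 over S288C ratios did (PHO5, PHO11, PHO12, PHO89 and VTC4), and under the changes of background, centring, spots and least squares 17 of 200 member ratios did (in PHO3, PHO5, PHO84, PHO89, VTC3 and VTC4). A single array differs from the mean by a fixed share of the gap between the arrays, so no count is given for it. No paired analysis was possible because each comparison holds 1 replicate.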
